A study of Cavia porcellus with 10 samples.

Results

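Keratins are the intermediate filament proteins of epithelial cells, and each filament is assembled from pairs of a type I and a type II chain. In stratified squamous epithelium the basal layer makes KRT14, and the cells above it switch to other keratins such as KRT1 as they differentiate. Single-layered and glandular epithelium makes simple keratins such as KRT7. The cervix carries both kinds of epithelium, a stratified squamous covering on its vaginal side and a mucus-secreting columnar lining in the canal.

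The keratin genes were taken as the rows of the expression table whose gene name is KRT followed only by digits and an optional letter, so that the keratin-associated proteins of hair (KRTAP) were left out. This rule gave 11 of 25028 rows, of which 20251 carry a gene name. There were 5 type I keratins (KRT14, KRT23, KRT25, KRT39 and KRT40) and 6 type II keratins (KRT1, KRT7, KRT74, KRT78, KRT80 and KRT82). By class, KRT14 is basal, KRT1, KRT78 and KRT80 are suprabasal, KRT7 and KRT23 are simple, and the other 5 belong to the hair follicle. Of 55 keratin names sorted into classes, 44 have no row of that name and were not analysed here, among them KRT5, KRT8, KRT10, KRT13, KRT18 and KRT19. Each class is therefore described by a few of its genes, and no pair of filament partners can be compared.

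RNA was sequenced from the vaginal portion of the cervix of Hartley guinea pigs, as whole tissue and with 1 library per animal. The groups were non-pregnant females in estrus (NP, 3 animals), pregnant females at mid-term, 43.6 ± 0.5 days of gestation (MT, 3 animals), and pregnant females at late term but not in labor, 65.2 ± 1.2 days (LT, 4 animals). The libraries held 18730665 to 27881572 reads counted on genes. Abundance is given in TPM, the number of a gene's transcripts relative to all transcripts of the library after correction for their length, so that levels of different keratins can be set side by side. How reads shared by near-identical keratin genes were counted was not tested. In whole tissue, fewer cells of a type and less RNA per cell cannot be told apart.

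The stages were compared by limma on the log2(TPM + 1) scale, over the 12645 genes with a stage mean of at least 3 TPM, and a gene was called at a Benjamini-Hochberg adjusted P under 0.05. This filter was passed by 7 of the 11 keratins, KRT14, KRT1, KRT78, KRT80, KRT7, KRT23 and KRT25, and 6 of them reached 3 TPM in every stage. Each keratin was also compared by a two-sided exact permutation test of square root TPM, which cannot give a P below 0.1 for 3 animals against 3 or below 0.0286 for 3 against 4.

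From NP to MT the simple keratin KRT7 and the hair keratin KRT25 rose and the suprabasal keratin KRT78 fell. The 3 called keratins of 7 stand beside 18.5% called among all genes tested, with 2 higher beside 6.27% and 1 lower beside 12.2%. From MT to LT the basal keratin KRT14 and the simple keratin KRT23 rose, and no tested keratin was called lower. These 2 calls of 7 stand beside 29.4% of all genes called, with 6.73% of all genes higher and 22.7% lower in LT. Between NP and LT 4 keratins were higher in LT (KRT7, KRT23, KRT25 and KRT1) and 1 was lower (KRT78), beside 53.1% of all genes called, 11.2% higher and 41.9% lower.

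The animals of the stages compared did not overlap for 3 keratins between NP and MT, 2 higher and 1 lower in MT, beside 34.9% of all genes tested (11.4% higher and 23.5% lower). Between MT and LT 3 keratins did not overlap (KRT14, KRT23 and KRT78), all of them higher in LT, beside 46.3% (10.8% higher and 35.5% lower). Between NP and LT 5 did not overlap, 4 higher and 1 lower in LT, beside 52.4% (11.8% higher and 40.6% lower).

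The median log2 fold change of the 7 tested keratins was 0.17 from NP to MT, 1.00 from MT to LT and 0.99 from NP to LT. The first is small and moved between 0.03 (without NP replicate 3) and 0.38 (without NP replicate 1) when an animal was left out. Over all tested genes these medians were -0.14, -0.16 and -0.28, so that single changes stand against a shift of that size. Of the called genes, 33.9%, 22.9% and 21.1% were higher in the later stage. After median-ratio scaling these shares were 60.4%, 49.7% and 53.0%. No called keratin changed direction under that scaling, but the small changes of KRT7 and KRT25 from MT to LT did (0.10 and 0.08).

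**Figure D1:**
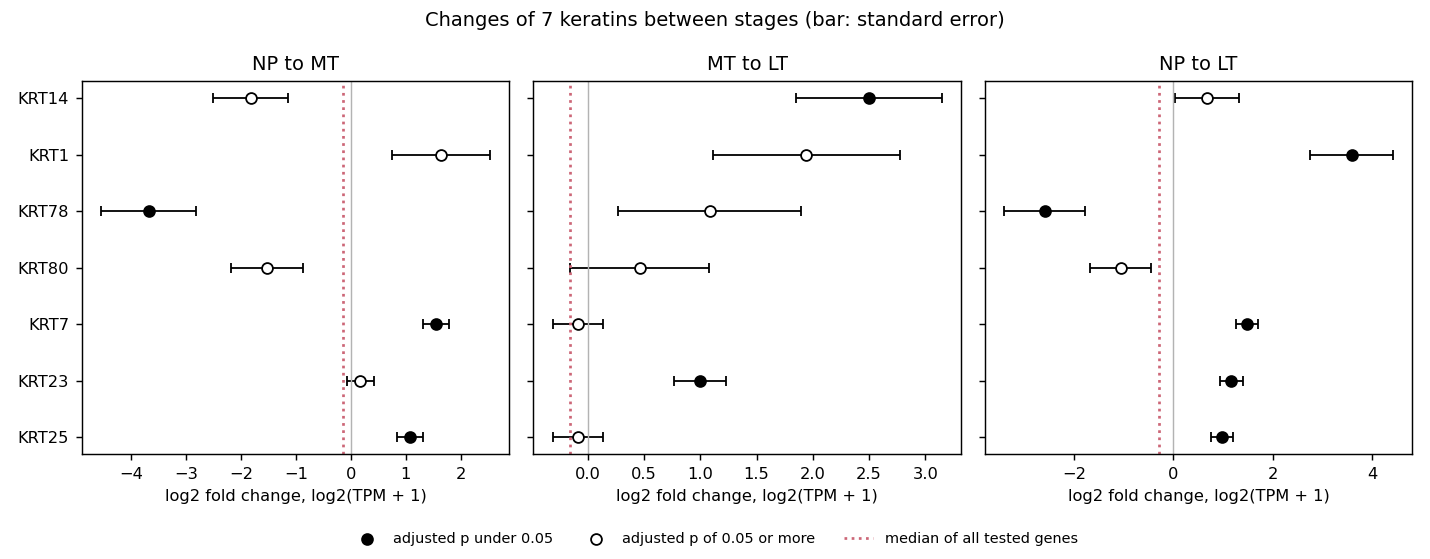
The log2 fold change of 7 keratins on the log2(TPM + 1) scale (horizontal axis) in 3 comparisons of stages, with the standard error as a bar. Filled points have a limma adjusted P under 0.05, and the dotted line is the median of all 12645 genes tested. KRT7 and KRT78 lie on opposite sides of 0 from NP to MT, and the filled points from MT to LT are KRT14 and KRT23.

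KRT14 (ENSCPOG00000006839), the type I keratin of basal squamous cells, was the most abundant named keratin in every NP and LT animal. It measured 2825, 919 and 969.9 TPM in NP replicates 1 to 3, 1142, 133 and 369 TPM in MT, and 1430.0, 2253, 2464 and 2803 TPM in LT replicates 1 to 4. All 4 LT animals lay above all 3 MT animals, while the NP animals overlapped both other stages. In order of abundance over all rows, KRT14 took rank 32 in NP replicate 1 and rank 39 in LT replicate 4, and rank 1090 in MT replicate 2.

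The stage means of KRT14 were 1571 ± 1086 TPM in NP (SD, n = 3), 548 ± 527 in MT (n = 3) and 2237 ± 584 in LT (n = 4). From MT to LT this is a ratio of means of 4.08 and a log2 fold change of 2.50 (standard error 0.64, limma adjusted P = 0.0184; exact P = 0.0286). The size of the change and the call rest on the MT animals. Without MT replicate 1 the ratio of means was 8.90 and the log2 value 3.28 (adjusted P = 0.00606). Without MT replicate 2 the change was 1.74 (adjusted P = 0.0648), and without MT replicate 3 it was 2.47 (adjusted P = 0.0515). Between NP and MT the change of -1.82 on the log2 scale did not pass (standard error 0.69, adjusted P = 0.0916), but leaving out MT replicate 1 gave -2.61 (adjusted P = 0.0163). NP and LT differed by 0.67 (standard error 0.64, adjusted P = 0.398).

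The suprabasal keratins did not move as a group. KRT78 (ENSCPOG00000008154), a type II keratin of differentiating stratified epithelium, measured 193, 46.7 and 8.38 TPM in the NP animals. In MT it measured 5.16, 0.965 and 2.46 TPM, and in LT 7.66, 6.22, 5.42 and 6.27 TPM. Every NP animal lay above every pregnant animal and every MT animal below every LT animal, although the lowest NP value and the highest LT value are close. The NP animals differed widely among themselves.

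The means of KRT78 were 82.7 ± 97.5 TPM in NP (SD, n = 3), 2.86 ± 2.13 in MT (n = 3) and 6.39 ± 0.934 in LT (n = 4). NP replicate 1 carried most of the NP mean, which was 27.6 TPM without it. On the log2 scale the change of KRT78 between NP and MT was -3.67 (standard error 0.87, limma adjusted P = 0.0173; exact P = 0.1), and -2.61 without NP replicate 1 (adjusted P = 0.0171). This call was lost without NP replicate 2 (adjusted P = 0.0536), MT replicate 2 (0.0590) or MT replicate 3 (0.0592), on the scale of square root TPM (0.0609) and in a fit of NP and MT alone (0.0720). From NP to LT the change was -2.59 (standard error 0.81, adjusted P = 0.0218; exact P = 0.0286). That call was lost without NP replicate 1 (-1.53, adjusted P = 0.0539) or NP replicate 2 (adjusted P = 0.0631). MT and LT did not overlap (exact P = 0.0286), but the limma change of 1.08 did not pass (standard error 0.81, adjusted P = 0.331). In a fit of MT and LT alone it did (standard error 0.35, adjusted P = 0.0423). Over the 3 stages, KRT78 had an exact P of 0.000476 for the F statistic, the smallest that this test can give.

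KRT1 (ENSCPOG00000007718) is the type II keratin of the differentiating layers of cornified epithelium. Its levels were 7.35, 2.499 and 0.783 TPM in NP, 55.0, 3.59 and 5.20 TPM in MT, and 25.7, 36.1, 48.8 and 81.3 TPM in LT. The LT animals all lay above the NP animals, and MT replicate 1 lay among the LT animals, far from the other MT animals. KRT1 therefore ran opposite to KRT78 between NP and LT, with means of 3.54 ± 3.40 TPM in NP (SD, n = 3) and 48.0 ± 24.1 in LT (n = 4). The log2 fold change from NP to LT was 3.59 (standard error 0.83, limma adjusted P = 0.00535; exact P = 0.0286), at a ratio of means of 13.6. Neither step reached the threshold, with 1.65 from NP to MT (adjusted P = 0.215) and 1.94 from MT to LT (adjusted P = 0.102). Without MT replicate 1 the MT mean fell from 21.3 to 4.40 TPM, and the change from MT to LT was 3.07 (adjusted P = 0.00994).

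KRT80 (ENSCPOG00000008948), a type II keratin found near desmosomes, measured 104, 29.4 and 8.48 TPM in NP, 12.6, 8.75 and 8.58 TPM in MT, and 12.5, 15.6, 11.5 and 16.7 TPM in LT. NP replicate 3 lay below every pregnant animal and the other NP animals above all of them, so that the stages overlapped. It changed by -1.53 on the log2 scale between NP and MT (standard error 0.66, limma adjusted P = 0.13) and by -1.06 between NP and LT (standard error 0.62, adjusted P = 0.171), neither of which passed. Without NP replicate 3 these were -2.38 (adjusted P = 0.00932) and -1.92 (adjusted P = 0.00618). Without NP replicate 1, the highest of the stage, they were -0.65 and -0.18. The highest limma adjusted P with 1 animal left out was 0.275 for the first and 0.698 for the second. From MT to LT the change was 0.46 (standard error 0.62, adjusted P = 0.594).

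KRT7 (ENSCPOG00000011035), a type II keratin of simple and glandular epithelium, measured 442, 241 and 202 TPM in NP, 744, 805 and 932 TPM in MT, and 753, 837, 779 and 737 TPM in LT. All 7 pregnant animals lay above all 3 NP animals, and MT and LT overlapped. The means were 295 ± 128 TPM in NP (SD, n = 3), 827 ± 96.0 in MT (n = 3) and 776 ± 43.98 in LT (n = 4). On the log2 scale the rise between NP and MT was 1.56 (standard error 0.24, limma adjusted P = 0.00261; exact P = 0.1) and that between NP and LT was 1.47 (standard error 0.22, adjusted P = 0.000605; exact P = 0.0286). Between MT and LT it was -0.09 (standard error 0.22, adjusted P = 0.796).

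KRT23 (ENSCPOG00000011030), a type I keratin, measured 153, 104 and 94.7 TPM in NP and 143, 97.3 and 155 TPM in MT. In LT it measured 249.7, 352, 206 and 249 TPM. The LT animals lay above all others, and NP and MT overlapped. The means were 117 ± 31.4 TPM in NP (SD, n = 3), 132 ± 30.4 in MT (n = 3) and 264 ± 62.3 in LT (n = 4). On the log2 scale the rise between MT and LT was 1.00 (standard error 0.23, limma adjusted P = 0.0118; exact P = 0.0286) and that between NP and LT was 1.17 (standard error 0.23, adjusted P = 0.00226; exact P = 0.0286). Without MT replicate 2 the change from MT to LT was 0.79 (adjusted P = 0.0509). From NP to MT it was 0.17 (standard error 0.24, adjusted P = 0.648).

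KRT25 (ENSCPOG00000000495) is a type I keratin known from the inner root sheath of hair follicles. It was scarce, with 86 to 337 reads per animal. It measured 2.98, 3.76 and 4.09 TPM in NP, 12.9, 6.75 and 7.39 TPM in MT, and 6.14, 9.71, 8.34 and 8.61 TPM in LT. All pregnant animals lay above all NP animals. On the log2 scale the rise between NP and MT was 1.08 (standard error 0.24, limma adjusted P = 0.0135; exact P = 0.1) and that between NP and LT was 0.99 (standard error 0.22, adjusted P = 0.00455; exact P = 0.0286). The call from NP to MT was lost in a fit of NP and MT alone (adjusted P = 0.0530) and with the replicate number as a block (0.0536). MT and LT differed by -0.09 (standard error 0.22, adjusted P = 0.793). The remaining hair keratins KRT39, KRT40, KRT74 and KRT82 were at or near 0, with 72 reads in all animals together and at most 0.524 TPM. KRT40 had 0 reads in every library. A level of 3 reads in a library, the limit that a count of 0 allows, came to at most 0.144 TPM over the 10 keratins with reads, and it covers counting error only. The 12 KRTAP rows held 13 reads. KRT25 was the only hair follicle keratin of the 5 above 1 TPM in any animal.

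**Figure D2:**
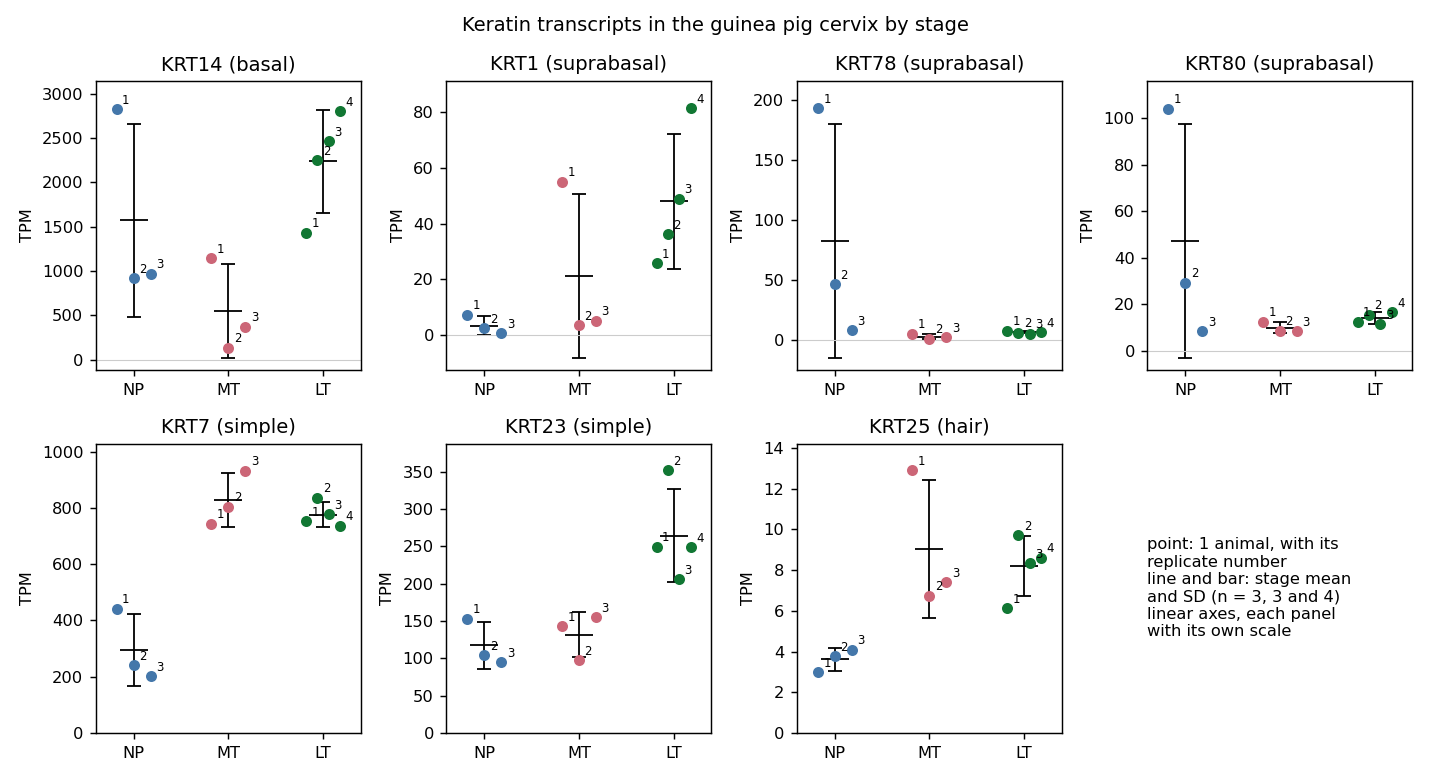
TPM (vertical axis, linear, with its own scale in each panel) of the 7 tested keratins in NP, MT and LT. Each point is 1 animal with its replicate number, and the line and bar are the stage mean and SD (n = 3, 3 and 4). NP replicate 1 is at the top of the NP animals for 6 of 7 keratins, and KRT25 is the exception.

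In NP and MT the same animals were often the extremes. NP replicate 1 was the highest NP animal for 6 of the 7 tested keratins and NP replicate 3 the lowest for 5. In MT, replicate 1 was the highest for 5 keratins and the lowest for KRT7, and replicate 2 was the lowest for 5. The excess of NP replicate 1 over the mean of the other NP animals was 7.01-fold for KRT78, 5.50-fold for KRT80, 4.48-fold for KRT1, 2.99-fold for KRT14, 1.99-fold for KRT7 and 1.54-fold for KRT23. In MT, replicate 1 exceeded the mean of the others 12.5-fold for KRT1 and 4.54-fold for KRT14. In NP replicate 1 the summed TPM of 5 smooth muscle markers was also the highest of the stage, at 17500, and that of the leukocyte markers the lowest, at 49.5. MT replicate 1 had the lowest smooth muscle sum of its stage, at 8453 beside 13353 and 10239, and also the lowest leukocyte sum, at 60.9. The fibroblast markers summed to the highest value of the stage in both animals, at 10647 and 9989.7. The part of any of these in the keratin values was not tested.

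The balance of the classes differed between stages. Summed over the 11 named keratins, NP animals held 3728, 1347 and 1289 TPM, MT animals 2115, 1056 and 1480 TPM, and LT animals 2485, 3509.9, 3523 and 3901 TPM. KRT14 took 68.2 to 75.8% of this sum in NP, 12.6 to 54.0% in MT and 57.5 to 71.8% in LT. The simple keratins took 15.96 to 25.6% in NP, 42.0 to 85.4% in MT and 25.3 to 40.4% in LT. The MT animals thus had the lowest basal and the highest simple shares, without overlap with either other stage. MT replicate 1 and LT replicate 1 were close in both shares. The suprabasal share was 1.37 to 8.17% in NP, 1.10 to 3.44% in MT and 1.65 to 2.67% in LT, with overlap throughout. These shares are descriptions and were not tested.

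In TPM, the simple keratins summed to 412 ± 160 in NP (SD, n = 3), 959 ± 111 in MT (n = 3) and 1041 ± 99.6 in LT (n = 4), so that their smaller share in LT than in MT went with a larger KRT14 sum and not with a smaller sum of their own. The ratio of KRT7 to KRT14 was 0.156, 0.263 and 0.209 in NP, 0.651, 6.03 and 2.52 in MT, and 0.527, 0.372, 0.316 and 0.263 in LT. KRT7 exceeded KRT14 in 2 animals, both at mid-term. All MT ratios lay above all others. Within the squamous keratins, KRT1 came to 0.0807 to 0.272% of KRT14 in NP, 1.41 to 4.82% in MT and 1.60 to 2.90% in LT. KRT78 came to 0.864 to 6.84% of KRT14 in NP and to 0.220 to 0.724% in the pregnant animals.

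**Figure D3:**
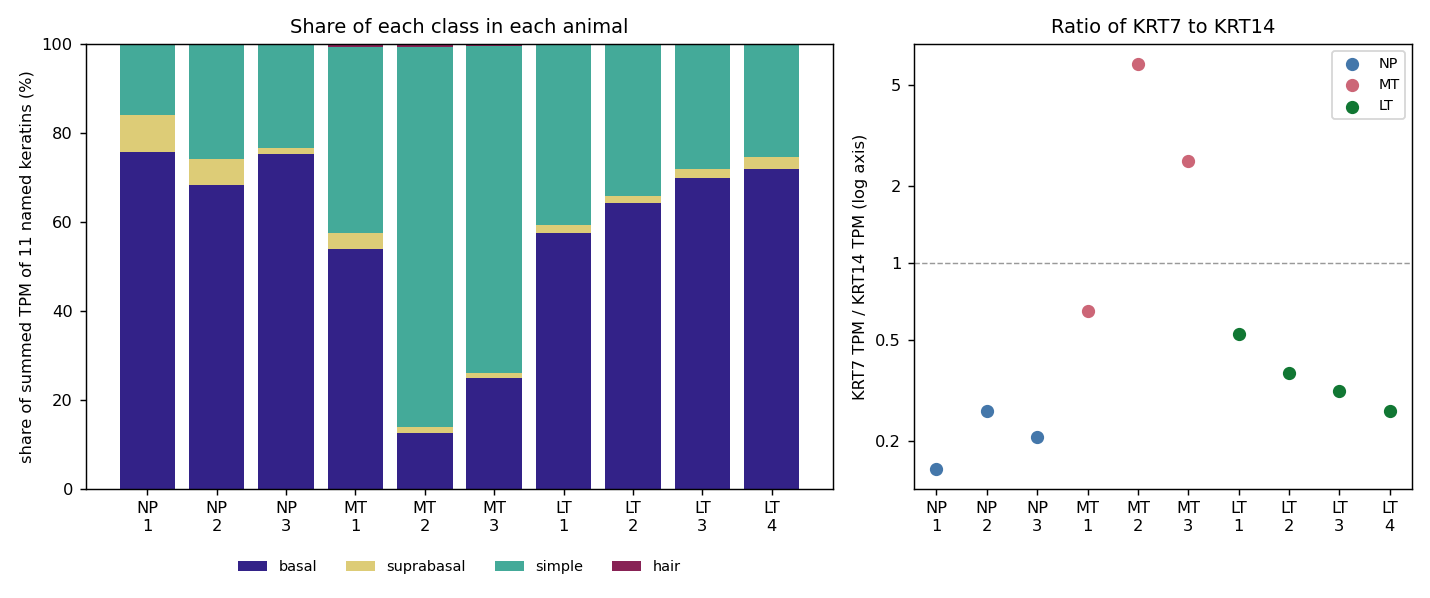
Left, the share of each keratin class in the summed TPM of the 11 named keratins (vertical axis, percent) in each animal. Right, the ratio of KRT7 to KRT14 TPM in each animal on a log axis, with a dashed line at 1. MT replicates 2 and 3 are the animals above the line, at 6.03 and 2.52.

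Of 10 genes of all epithelium, 1 was higher from NP to MT, beside 6.27% of all genes tested, 1 was higher from MT to LT, beside 6.73%, and 3 were higher in LT than in NP, beside 11.2%. In each comparison 0 were lower. After median-ratio scaling 6 were higher in LT than in NP, beside 26.3% of all genes, and with edgeR 5, beside 23.6%. CDH1, the adhesion molecule of epithelial junctions, had means of 150 ± 22.1 TPM in NP (SD, n = 3), 176 ± 25.0 in MT (n = 3) and 179 ± 10.9 in LT (n = 4), with log2 fold changes of 0.23 (limma adjusted P = 0.248) and 0.04 (adjusted P = 0.846). It was not among the 3 called from NP to LT. After median-ratio scaling, with edgeR and without NP replicate 1 it was called higher in LT than in NP. TP63, the transcription factor of basal squamous cells, had means of 39.2 ± 14.3, 37.0 ± 11.2 and 40.8 ± 8.55 TPM. Its changes were -0.06 (limma adjusted P = 0.901) and 0.16 (adjusted P = 0.699), and the first was 0.07 after median-ratio scaling.

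Set against these genes, a choice made after the values were seen, the ratio of KRT14 to TP63 was 52.3, 24.1 and 38.1 in NP, 23.8, 5.23 and 9.81 in MT, and 49.3, 56.4, 52.6 and 59.2 in LT. All MT ratios lay below all others, although MT replicate 1 and NP replicate 2 were close. The KRT7 to CDH1 ratio was 1.56 to 2.55 in NP, 4.08 to 5.44 in MT and 4.06 to 4.51 in LT. All 7 pregnant animals lay above all NP animals in this ratio.

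Of 20 listed genes that anchor keratins to desmosomes and hemidesmosomes, 17 were tested. From NP to MT 1 was called, lower in MT, beside 18.5% of all genes tested, with a median change of -0.36 on the log2 scale that was -0.01 without NP replicate 1 and -0.70 without MT replicate 1. Between MT and LT 3 were called, 2 higher and 1 lower, beside 29.4%, with a median of 0.44 that was 0.81 without MT replicate 1. After median-ratio scaling 3 were higher and 0 lower, beside 14.6% and 14.8% of all genes. With edgeR 1 was higher (DSG2) and 0 lower, beside 13.4% and 15.6%. The lower call (DST) was thus lost in both. PERP, a desmosomal membrane protein, had means of 532 ± 330, 581 ± 244 and 1312 ± 388 TPM in NP, MT and LT, with a change of 1.20 from MT to LT (limma adjusted P = 0.0504) and of 1.42 from NP to LT (adjusted P = 0.015). DSP, the plaque protein that binds keratin filaments, had means of 162 ± 79.3, 133 ± 90.3 and 209 ± 60.6 TPM and passed in neither step. Without NP replicate 1, 7 of these genes were higher and 2 lower from MT to LT, beside 9.78% and 32.3% of all genes, and PERP passed (adjusted P = 0.0154). Without MT replicate 1, 8 were higher and 1 was lower, beside 6.07% and 17.2%, and PERP and DSP passed (adjusted P = 0.0356 and 0.0323).

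Of 18 listed genes of the cornified envelope and squamous differentiation 13 were tested, and 5 of these (IVL, CNFN, CRCT1, SPRR3 and RHCG) passed the filter through NP alone, so that a count or median over the tested genes describes the filter as well as the stages. From NP to MT 8 were called lower (these 5, SPINK5, TGM1 and MAL) and 1 higher (SERPINB2), beside 12.2% of all genes lower and 6.27% higher. From MT to LT 3 were higher (LYPD3, GRHL3 and SPINK5) and 0 were lower, beside 6.73% and 22.7%. With edgeR SPINK5 alone was higher, beside 13.4%, and without NP replicate 1, 5 were higher and 1 (IVL) was lower, beside 9.78% and 32.3%. The genes that make up these counts are named after their values were seen. The most abundant members, S100A14 and EMP1, were called in neither step, although S100A14 passed from MT to LT without NP replicate 1 (adjusted P = 0.0192) or MT replicate 1 (0.0217). S100A14, an epithelial calcium-binding protein, had means of 443 ± 305, 283 ± 179 and 622 ± 117 TPM in NP, MT and LT, and EMP1, an epithelial membrane protein, 382 ± 392, 197 ± 29.4 and 238 ± 64.9 TPM. IVL, a protein cross-linked into the cornified envelope, had means of 53.3 ± 57.3, 2.55 ± 0.568 and 0.528 ± 0.424 TPM. SERPINB2, a serine protease inhibitor, went the other way with 16.4 ± 4.52, 113 ± 53.9 and 263 ± 147 TPM, a change of 2.59 from NP to MT (limma adjusted P = 0.00677). The summed level of the whole list was 2796, 837 and 537 TPM in NP, 876, 386 and 626 TPM in MT, and 1005, 1413, 1012 and 1713 TPM in LT. All LT animals lay above all MT animals, and NP overlapped both.

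Among 10 tested genes of columnar epithelium, 5 were higher and 2 were lower from NP to MT, with a median of 1.43, beside 6.27% of all genes higher and 12.2% lower. This median was 0.70 without NP replicate 1. From MT to LT 1 (AGR2) was higher and 0 were lower, beside 6.73% and 22.7%. EPCAM was also higher after median-ratio scaling and with edgeR, beside 14.6% and 13.4% of all genes. Without NP replicate 1, 2 were higher (AGR2 and CLDN4) and 2 lower (MUC5B and FOXA2), beside 9.78% and 32.3%. AGR2, a protein folding factor of mucus-secreting cells, had means of 154 ± 58.9, 2255 ± 883 and 6718 ± 847 TPM. MUC5B, a gel-forming mucin, had means of 75.8 ± 57.5, 730 ± 296 and 340.0 ± 61.8 TPM. EPCAM changed by 0.35 from NP to MT (standard error 0.09, limma adjusted P = 0.0245), and its call was lost without MT replicate 1 (adjusted P = 0.0564). The summed level of the list lay between 1146 and 1223 TPM in NP, between 2765 and 4810 TPM in MT and between 7250 and 8959 TPM in LT, without overlap between the stages. The step from MT to LT rests on AGR2. Without it, a sum taken after the values were seen, the list came to between 1004 and 1044 TPM in NP, between 1515 and 2199 TPM in MT and between 1345 and 1703 TPM in LT, so that MT and LT overlapped, as they did for KRT7.

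**Figure D4:**
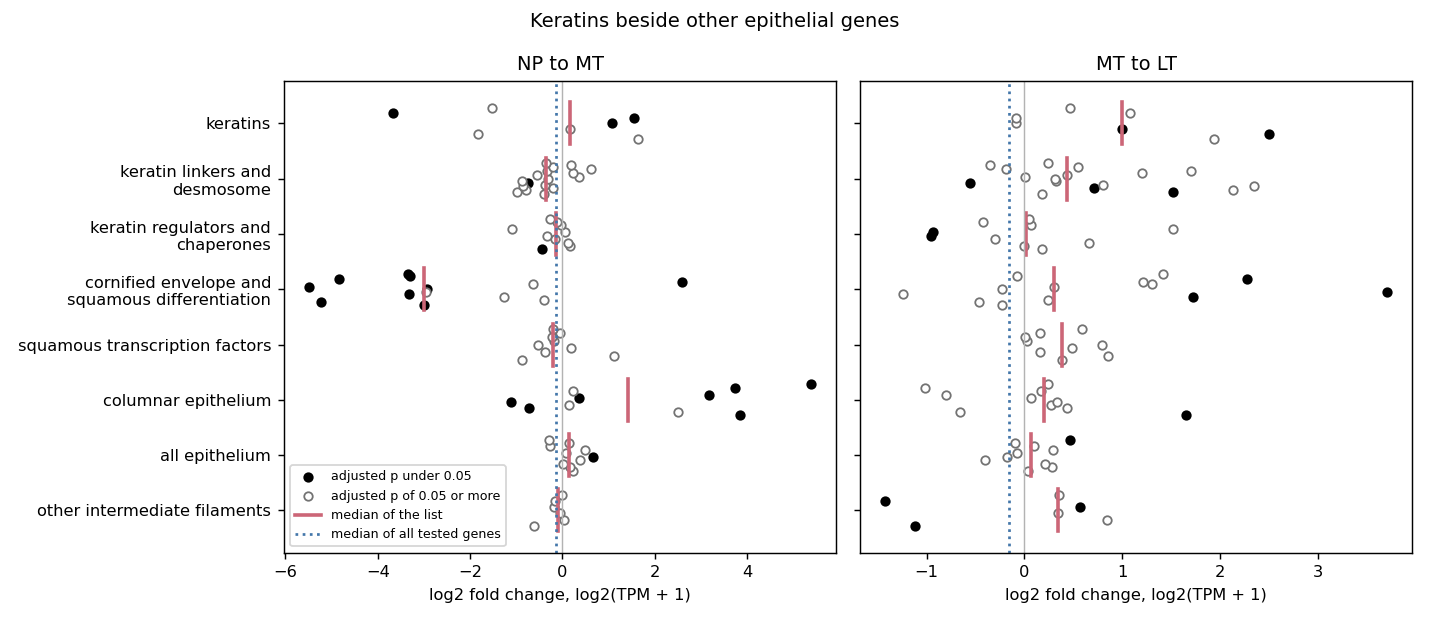
Log2 fold changes on the log2(TPM + 1) scale (horizontal axis) of the keratins and of 7 lists of other genes, from NP to MT (left) and from MT to LT (right). Each point is 1 gene, filled where the limma adjusted P is under 0.05, the bar is the list's median and the dotted line the median of all tested genes. The columnar list has a median of 1.43 from NP to MT (0.70 without NP replicate 1), and 5 of the cornified envelope genes far to the left of 0 there passed the filter through NP alone.

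Of the factors that act on keratins, such as chaperones and kinases, 10 were tested, and 0 were higher and 1 was lower from NP to MT, beside 6.27% and 12.2% of all genes, a call (CSNK1A1) lost after median-ratio scaling and with edgeR. Between MT and LT 0 were higher and 2 lower, beside 6.73% and 22.7%, and from NP to LT 0 and 5, beside 11.2% and 41.9%. This balance depended on the scaling, with 2 higher and 2 lower from NP to LT after median-ratio scaling, beside 26.3% and 23.4%, and 1 and 2 with edgeR, beside 23.6% and 25.8%. HSPB1, a small heat shock protein that associates with keratin filaments, had means of 1721 ± 968, 1731 ± 538 and 2716 ± 606 TPM. SFN, a 14-3-3 protein of keratinocytes, had means of 237 ± 235, 83.5 ± 41.2 and 228 ± 55.1 TPM. Neither passed by limma with all 10 animals and TPM as deposited. Without NP replicate 1, SFN was higher in LT than in MT (adjusted P = 0.0155) and both were higher in LT than in NP (0.0410 for SFN and 0.00449 for HSPB1, which also passed at 0.0410 after median-ratio scaling). Of 9 tested squamous transcription factors, 0 were called in either step by limma with all 10 animals or by edgeR, beside 18.5% and 29.4% of all genes in limma, with 3 and 4 at an unadjusted limma P under 0.05. Median-ratio scaling called 1 from MT to LT (PITX1). Without MT replicate 1, 2 were lower from NP to MT and 2 higher from MT to LT, beside 11% and 6.07%, and without NP replicate 1, 1 was higher in each step, beside 7.22% and 9.78%. In LT 2 were higher than in NP, beside 11.2% of all genes. KLF4, a factor of squamous differentiation, was one of them with means of 37.4 ± 11.9 TPM in NP and 155 ± 56.8 in LT (log2 fold change 1.97, limma adjusted P = 0.00169). Of 6 tested intermediate filament genes other than keratins, 0 were called from NP to MT by limma or edgeR, with 0 at an unadjusted P under 0.05, beside 18.5% of all genes called. From MT to LT 1 was higher and 2 were lower, beside 6.73% and 22.7%, and from NP to LT 0 and 2, beside 11.2% and 41.9%. Without NP replicate 1 the latter were 3 higher, DES among them, and 2 lower, beside 11.3% and 49.8%. DES, the intermediate filament of muscle, was the most abundant of them with means of 1606 ± 1349, 1324 ± 225 and 2500 ± 969 TPM.

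Smooth muscle markers summed to 6186 to 19387 TPM and fibroblast markers to 5239 to 10647 TPM over the 10 animals, while the genes of all epithelium summed to 854 to 1196 TPM. These sums cover different genes and do not measure the share of a tissue. The columnar list summed to 8640, 8127 and 8959 TPM in LT replicates 2 to 4, above their fibroblast sums of 6757, 7014 and 6116. In all other animals it lay below the fibroblast sum. Of the 5 smooth muscle markers 0 were called from NP to MT or from MT to LT by limma with all 10 animals or by edgeR, with 0 at an unadjusted P under 0.05, beside 18.5% and 29.4% of all genes called in limma. TAGLN was higher from NP to LT (limma adjusted P = 0.0493), beside 11.2% of all genes, a call lost with edgeR (0.0749) and without MT replicate 1 (0.0574). Without NP replicate 1, TAGLN was higher from MT to LT and 3 of the 5 were higher from NP to LT, beside 11.3% of all genes. Of the 5 fibroblast markers LUM was lower from NP to MT, beside 12.2% of all genes. This call was lost with edgeR, without MT replicate 1 (limma adjusted P = 0.0671) and after median-ratio scaling (0.108). LUM was higher from MT to LT, beside 6.73%. PDGFRA was lower in LT than in MT, beside 22.7%, and than in NP, beside 41.9%. MYH11, the myosin of smooth muscle, had means of 934 ± 280, 997 ± 233 and 1083 ± 273 TPM. The 3 tested endothelial markers were all lower in LT than in MT, beside 22.7% of all genes, and than in NP, beside 41.9%. The call of CDH5 from MT to LT was lost after median-ratio scaling (adjusted P = 0.0578) and with edgeR (0.0597). CDH5 was lower in MT than in NP, a call lost without MT replicate 1 (adjusted P = 0.0931). The leukocyte markers summed to between 49.5 and 135 TPM in NP, between 60.9 and 79.4 TPM in MT and between 95.9 and 188 TPM in LT. CD14 was higher in LT than in MT, beside 6.73% of all genes, and than in NP, beside 11.2%. PTPRC, the common leukocyte antigen, was lower in LT than in NP (log2 fold change -0.98, limma adjusted P = 0.0154), beside 41.9%. Without NP replicate 1, CD68 and PTPRC were lower from NP to MT, beside 25.8%, and CD3E was lower from NP to LT, beside 49.8%. CD68 was then higher from MT to LT, beside 9.78%. Of the erythroid markers ALAS2 had a row, at most 0.907 TPM. Of the markers of squamous and columnar cells, CRNN did not exceed 0.193 TPM, and TFF3 and MUC5AC stayed below 5 TPM in all animals. The part of cell composition in the keratin values was not tested.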

How the data were processed

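Cervical poly(A) RNA of 10 guinea pigs was sequenced as strand-specific reads of 75 bp. The authors called bases with CASAVA 1.8.2, aligned with TopHat2 to the cavPor3 genome and counted reads on Ensembl 69 genes with HTSeq 0.5.4p1, and the deposited table holds the count and the TPM of each gene and animal. TPM were used as deposited, and each column was assigned to 1 animal by its label. Each library is a separate animal, so that P-values measure the spread between animals. A trend fit in limma 3.58.1 (R 4.3.3), with stage as the only term and a filter at a stage mean of 3 TPM, was adjusted over 12645 genes and tested on simulated data. Alternatives changed the pseudocount, filter, scaling, model (edgeR 4.0.16, DESeq2 1.42.0 on the counts), pairing and animals included. Fits of the lists without NP replicate 1 or MT replicate 1 were chosen after seeing the data. The keratins, their classes and the gene lists were chosen with earlier results of these data known. Keratins with a stage mean of at least 3 TPM were named with values, and from each list up to 3 members of highest mean TPM and the markers EPCAM, CDH1, PTPRC and MYH11 were named. VIM and DCN, also set for naming, were not analysed here. Other genes were named after their values were seen. Ratios of filament partners and genome positions were not analysed here.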

Additional observations from a re-analysis of the deposited data

Results flagged for a closer look

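The summed TPM of the simple keratins KRT7 and KRT23 in LT was flagged because 1 animal lay far from the others. LT replicate 2 had 1189 TPM, beside 1003, 985 and 985 TPM in replicates 1, 3 and 4. The gap to the nearest animal was 0.910 of the range of the 4 values, above Dixon's limit for a group of 4. The same animal had the highest KRT7 (837 TPM) and the highest KRT23 (352 TPM) of its stage. Such a flag arises by chance in about 1 of 20 groups tested.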

How the results depend on the processing

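Of 480 values of single keratins under alternative settings, 458 stayed on their side of the threshold, 7 gained a call, 15 lost one and 0 called values changed sign, while the small changes of KRT7 and KRT25 from MT to LT changed sign under other scalings and count models. KRT7 was called from NP to MT and from NP to LT, and KRT1, KRT23 and KRT25 from NP to LT, in every alternative that gave a value. With only the 2 stages compared in the fit, 1 keratin was called from NP to MT (KRT7) in place of 3, beside 8.8% of all genes, and 3 from MT to LT (KRT78 in addition) in place of 2, beside 38.8%. KRT78 was not called from NP to LT after quantile normalization (adjusted P = 0.0575), and DESeq2 called KRT80 from NP to MT (adjusted P = 0.00659) and from NP to LT (0.0285). The number called ranged from 2 to 4 for NP to MT, 0 to 3 for MT to LT and 4 to 6 for NP to LT when 1 animal was left out, while the share of all genes called ranged from 8.7 to 33.0%, 15.4 to 42.1% and 41.9 to 61.1%. With the replicate number as a block, 0 keratins were called from MT to LT (KRT14 adjusted P = 0.0506, KRT23 0.0511), 2 from NP to MT and 5 from NP to LT, beside 13.4%, 12.5% and 43.1% of all genes. Of 9 same-numbered pairs 3 had a correlation over 0.1 (range -0.29 to 0.25). Differently numbered pairs had similar values, and with so few animals this cannot tell whether the numbers pair them. The simple keratin sum in LT was 1150 TPM after median-ratio scaling, beside 1041. Over the other gene lists, 13 genes were called from MT to LT, 30 without NP replicate 1 and 22 without MT replicate 1, beside 29.4%, 42.1% and 23.3% of all genes. The causes were not tested. KRT25 gave no value at a minimum of 10 TPM, and counting activation keratins with the basal class was not run because no such row was found by name. With 3 or 4 animals a stage, a P over the threshold does not show equal levels.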
